A study of Homo sapiens with 24 samples.

Results

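This account covers 10 genes known as targets of the transcription factor NF-kB, followed when TFAP2C, which encodes the transcription factor AP-2gamma, was knocked down in HER2-positive human breast carcinoma cell lines. They are the chemokine genes CXCL1, CXCL2, CXCL3, CXCL8, CCL2 and CCL20, the adhesion receptor gene ICAM1, and the pathway regulators BIRC3, NFKBIA and TNFAIP3. They were taken by name from 27431 gene symbols, and all 10 were listed in each of the 3 genome-wide comparison tables. A table of 68 selected genes for a further line, HCC1569, listed 0 of the 10 and is not used below.

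The study had 24 samples in 8 groups of 3, of which 6 groups enter here. In SKBR3 and in HCC1954, cells transfected with lipofectamine RNAiMAX carried either a negative control siRNA (SKBR3_siNT, HCC1954_siNT) or an siRNA against TFAP2C (SKBR3_siAP2C, HCC1954_siAP2C), and were taken 72 to 96 h later. In HCC1954, stable cell clones made with lentivirus carried either a control shRNA (HCC1954_shNT) or an shRNA against TFAP2C (HCC1954_shAP2C). All were grown with serum, antibiotics and Plasmocin, and were at passage 5 to 10. The number of clones behind each shRNA group is unstated, and the lines were not authenticated, per the labels' protocols. In the shRNA comparison, an effect of the knockdown and a difference between clones therefore cannot be told apart. The values are the authors' pooled FPKM (fragments per kilobase of transcript, scaled to the mapped fragments of the library), 1 value per group, summed here over the RefSeq transcripts of a gene. No spread between samples can therefore be given for a level, and the depth is unknown. A gene is said to rise or fall only where the q-value of its leading transcript (that of highest FPKM averaged over the 6 groups) was under 0.05 in the authors' deposited table. Nothing in the labels says that samples came from separate cultures, so these q-values measure only the spread between the samples, which may be technical. The table of HCC1954 siRNA names only the siRNA in its columns. It was assigned to HCC1954 because no other line of the labels with an siRNA remained. ERBB2, the HER2 gene, was at 20.8 FPKM in HCC1954_shAP2C, against 1525 FPKM in HCC1954_shNT and 4676 FPKM in HCC1954_siNT. HER2-positive is thus a name of the lines and not a description of the RNA of HCC1954_shAP2C. Whether that group matches the parent line was not tested.

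NF-kB is a family of dimeric transcription factors held in the cytoplasm by IkB proteins. Signals from cytokine and pattern recognition receptors activate the IKK kinases, which mark IkB for destruction, and the freed dimers then enter the nucleus and bind kB sites in promoters. Targets include chemokines, which draw leukocytes toward a tissue, adhesion molecules, and inhibitors that close the loop, such as NFKBIA and TNFAIP3. In breast carcinoma cells, chemokine expression of this kind is better known from basal-like lines than from luminal ones.

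Kappa-B motifs are what most of these promoters share in sequence, so the stretches that hold them are shown first. RefSeq promoter sequences (GRCh38.p14, 250 bases before to 50 bases after the annotated start) were matched for 9 of the 10 genes, all except CCL2. The 150 bases before the start are printed 5' to 3' on the gene's own strand, and capitals mark matches to the NF-kB consensus or to the 9-base kB core GGAATTTCC.
CXCL1 (chr4:73869243-73869392, plus strand): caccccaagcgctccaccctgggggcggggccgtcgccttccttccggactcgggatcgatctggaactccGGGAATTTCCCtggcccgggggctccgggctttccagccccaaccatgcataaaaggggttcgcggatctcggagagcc
CXCL2 (chr4:74099196-74099345, minus strand): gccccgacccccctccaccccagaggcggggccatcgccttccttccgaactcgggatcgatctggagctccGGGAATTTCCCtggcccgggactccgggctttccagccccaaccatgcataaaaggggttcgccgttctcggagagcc
CXCL3 (chr4:74038690-74038839, minus strand): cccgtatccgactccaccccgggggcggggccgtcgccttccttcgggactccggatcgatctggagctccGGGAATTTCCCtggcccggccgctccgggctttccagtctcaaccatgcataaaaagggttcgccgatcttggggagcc
CXCL8 (chr4:73740419-73740568, plus strand): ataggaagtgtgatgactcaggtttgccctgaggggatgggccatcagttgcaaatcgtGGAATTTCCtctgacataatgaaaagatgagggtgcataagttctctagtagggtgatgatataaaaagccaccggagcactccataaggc
NFKBIA (chr14:35404750-35404899, minus strand): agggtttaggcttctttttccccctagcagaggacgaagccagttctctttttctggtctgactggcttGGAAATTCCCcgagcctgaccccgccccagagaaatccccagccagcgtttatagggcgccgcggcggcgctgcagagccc
TNFAIP3 (chr6:137867109-137867258, plus strand): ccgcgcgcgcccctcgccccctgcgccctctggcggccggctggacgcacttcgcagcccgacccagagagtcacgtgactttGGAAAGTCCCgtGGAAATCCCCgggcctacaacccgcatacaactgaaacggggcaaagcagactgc

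Of the 9 promoters, 7 held the NF-kB consensus on either strand, against 5.72% of 27305 RefSeq promoters of the same length. The kB core GGAATTTCC, searched on both strands and often lying inside a consensus match, was in 6 of the 9 and in 0.472% of all promoters. CXCL1, CXCL2 and CXCL3 carried the same 11-base run, GGGAATTTCCC, with its first consensus match starting at position -79, -78 and -79 from the start site. CXCL8 held the core and no consensus match, at -91 to -83, downstream of an AP-1 motif (TGANTCA, which reads the same on both strands) at -137 to -131. NFKBIA held its match at -81 to -72. TNFAIP3 held 2, at -67 to -58 and at -55 to -46. In promoters not printed, CCL20 had GGAAAACCCC at -79 to -70, ICAM1 had the core as GGAAATTCC at -186 to -178, and BIRC3 had GGAAATCCCC at -199 to -190 and GGAGTTCCCC at -135 to -126. AP-1 motifs were in 1 of the 9 (CXCL8) and in 7.76% of all promoters. The AP-2 motif GCCNNNGGC, which also reads the same on both strands, was in 2 of the 9, CXCL1 and CXCL2, in each case 11 to 19 bases past the start, and in 23.0% of all promoters. The genes were named as NF-kB targets, so kB motifs describe the list and are no finding about TFAP2C.

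**Figure D1:**
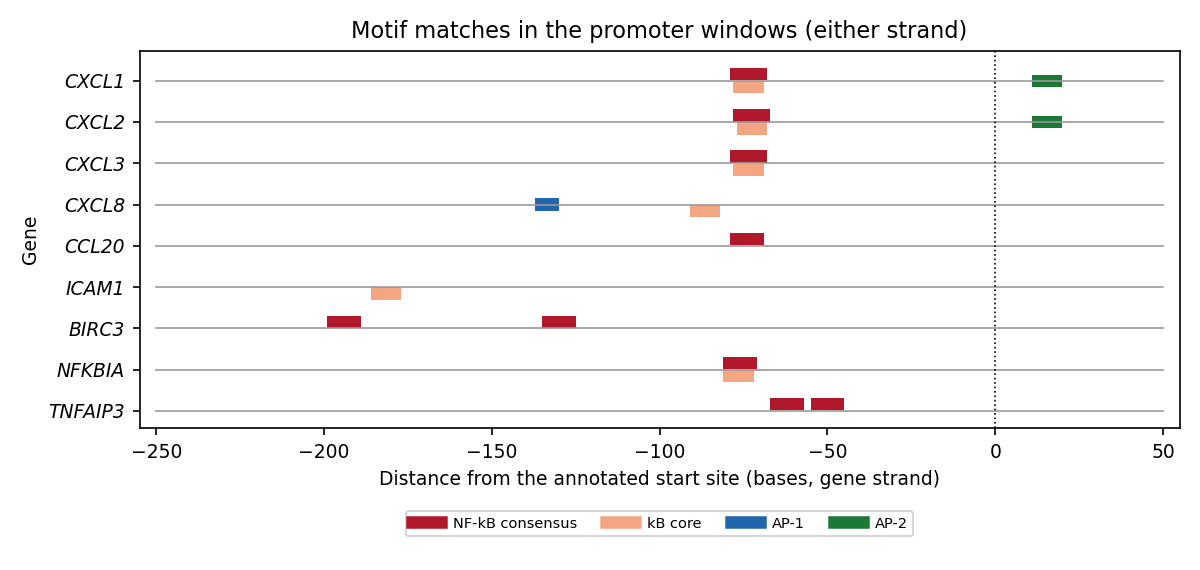
Positions of motif matches in the 9 promoter windows, in bases from the annotated start (dotted line at 0), with 1 line per gene. Red and orange bars (NF-kB consensus and kB core) lie between -199 and -46, and green bars (AP-2) only in CXCL1 and CXCL2.

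Several of the transcripts also carry the AU-rich element by which unstable messengers are known. The nonamer TTATTTATT was present in the 3' untranslated region of 6 of the 10 genes, against 8.58% of 18642 genes with a MANE Select transcript (GENCODE annotation, GRCh37). CXCL2 had 5 copies and CXCL1 had 3, while CXCL3, CXCL8, BIRC3 and TNFAIP3 had 1 each. CCL2, CCL20, ICAM1 and NFKBIA had 0.

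TFAP2C, whose knockdown checks the labels, was lower in all 3 knockdown groups. Its level was 157 FPKM in SKBR3_siNT against 53.9 FPKM in SKBR3_siAP2C, 92.4 FPKM in HCC1954_siNT with a log2 ratio of -2.07 ± 0.31 for siRNA there, and 81.0 against 3.46 FPKM for shRNA (q = 0.000441, 0.00425 and 0.000121 in the authors' deposited table). The share of tested symbols called differed widely. It was 33.3% of 9903 in SKBR3, 3.28% of 10773 with siRNA in HCC1954 and 75.4% of 9564 with shRNA, so a call carries unequal weight in the 3 comparisons.

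The CXC chemokines of this list share the ELR motif and act on the receptors CXCR1 and CXCR2 of neutrophils. Their genes lie together on chromosome 4 (GRCh37), CXCL8 at 74606236 to 74609433 on the plus strand, CXCL1 at 74735110 to 74737025 on the plus strand, CXCL3 at 74902306 to 74904524 and CXCL2 at 74962757 to 74964913, both on the minus strand. CXCL8, the interleukin 8 gene, was at 1.20 FPKM in SKBR3_siNT and 0.716 FPKM in SKBR3_siAP2C. In HCC1954 it was at 53.4 FPKM in siNT and 49.0 FPKM in siAP2C, and at 583 FPKM in shNT and 0.758 FPKM in shAP2C. The shRNA control thus stood far above the other 5 groups, and the shRNA knockdown was listed between the SKBR3 groups, in a table normalized separately. The fall with shRNA was 769-fold, with a log2 ratio of -9.76 ± 1.15 for the leading transcript (standard error taken as the ratio over the deposited statistic, q = 0.000349 in the authors' deposited table). The deposited statistic and p do not always match, so a ± value is not the error behind its q. For siRNA in HCC1954 the log2 ratio of the leading transcript was -0.14 ± 0.33 (q = 0.783 in the authors' deposited table), and in SKBR3 the gene was not tested.

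CXCL2 was likewise highest in HCC1954_shNT, at a lower level. It was at 0.0955 and 0.0721 FPKM in SKBR3 (siNT, siAP2C), at 3.65 and 3.95 FPKM with siRNA in HCC1954, and at 39.1 and 0.272 FPKM with shRNA. The fall with shRNA was 144-fold, log2 ratio -7.17 ± 2.25 (q = 0.0370 in the authors' deposited table), and it did not pass a stricter threshold of q under 0.01. Its log2 ratio for siRNA in HCC1954 was 0.11 ± 0.68 (q = 0.942 in the authors' deposited table).

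CXCL3 was high in 1 group alone. It stood at 26.2 FPKM in HCC1954_shNT and between 0.176 and 0.471 FPKM in the other 5 groups. Its log2 ratio with shRNA was -6.35 ± 2.05, and the call was missed (q = 0.0709 in the authors' deposited table). After siRNA it was not tested in either line. CXCL1 had little signal anywhere, from 0.0355 FPKM in HCC1954_siNT to 0.762 FPKM in SKBR3_siNT, and was tested in no comparison. Its level in HCC1954_shNT was 0.0786 FPKM, where the other 3 CXC genes reached 26.2 to 583 FPKM. The protein-coding transcripts of these genes share sequence. Of the 50-base words of CXCL2, 5.63% were also in CXCL1 and 5.07% in CXCL3, so the values of these 3 genes are uncertain where reads could be split or dropped.

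Among the CC chemokines, CCL2 was the member that fell in all 3 comparisons. CCL2 (chromosome 17, 32582293 to 32584227, plus strand) draws monocytes through the receptor CCR2. SKBR3_siNT had 12.2 FPKM and SKBR3_siAP2C 5.54 FPKM, 2.20-fold lower. HCC1954_siNT had 11.2 FPKM and HCC1954_siAP2C 3.83 FPKM, 2.94-fold lower. HCC1954_shNT had 246 FPKM and HCC1954_shAP2C was listed at 0, for which no fold is given. The log2 ratios after siRNA were -1.14 ± 0.52 in SKBR3 and -1.55 ± 0.74 in HCC1954. All 3 falls were called (q = 0.000823, 0.00425 and 0.000121 in the authors' deposited table). Between the siRNA comparisons the ratio differed by -0.41 log2 units (95% interval -2.18 to 1.35, HCC1954 minus SKBR3, q = 1.00 by the z test described below, over 8907 genes), an interval too wide to show that the lines responded alike. At the 2 siRNA controls the gene had similar listed levels, although CXCL8 was 44.7-fold higher in the HCC1954 control than in SKBR3.

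CCL20 (chromosome 2, 228670455 to 228682280, plus strand), the ligand of CCR6, was low except in the shRNA control. It was listed at 0.810 and 4.44 FPKM in SKBR3 (siNT, siAP2C), 0.826 and 0.490 FPKM with siRNA in HCC1954, and 27.6 and 0.0536 FPKM with shRNA. The siRNA comparisons did not test it, and the higher level in SKBR3_siAP2C is therefore a listed value only. With shRNA the difference of 516-fold was tested and not called (q = 0.296 in the authors' deposited table). The deposited statistic was small, and the standard error taken from it was 31.2 log2 units.

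ICAM1, the receptor for leukocyte integrins (chromosome 19, 10381769 to 10397291, plus strand), moved in opposite directions in SKBR3 and with shRNA. In SKBR3 it rose 2.44-fold, from 7.46 to 18.2 FPKM (log2 ratio 1.29 ± 0.24, q = 0.000441 in the authors' deposited table). It was at 27.5 and 31.8 FPKM with siRNA in HCC1954, log2 ratio 0.21 ± 0.31 (q = 0.648 in the authors' deposited table). With shRNA it fell from 58.4 to 1.20 FPKM, or 48.7-fold (log2 ratio -5.61 ± 0.58, q = 0.000121 in the authors' deposited table). Exons of ICAM1 overlap antisense transcripts in the annotation, as do those of BIRC3 and TNFAIP3. Whether counting used strand is unstated, so reads in those overlaps cannot be assigned.

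Of the regulators, NFKBIA encodes IkB-alpha, the inhibitor that holds NF-kB dimers in the cytoplasm and is itself an NF-kB target. It lies on chromosome 14, 35870285 to 35873955, minus strand. NFKBIA had the highest level of the 10 in both SKBR3 groups and in HCC1954_shAP2C. In SKBR3 it rose 1.28-fold, from 92.9 to 119 FPKM (log2 ratio 0.36 ± 0.18, q = 0.000441 in the authors' deposited table). It was at 48.5 and 45.2 FPKM with siRNA in HCC1954, log2 ratio -0.10 ± 0.32 (q = 0.841 in the authors' deposited table). With shRNA it fell from 154 to 20.2 FPKM, 7.66-fold (log2 ratio -2.94 ± 0.21, q = 0.000121 in the authors' deposited table), the smallest fall among the 7 members called there, CCL2 having no ratio.

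BIRC3 encodes cIAP2, a ubiquitin ligase of the TNF receptor complex that restrains cell death (chromosome 11, 102188215 to 102210134, plus strand). In SKBR3 it rose 3.42-fold, from 2.24 to 7.65 FPKM, and the log2 ratio of 1.77 ± 0.27 was the highest among the members called there. After siRNA in HCC1954 it was at 15.0 and 19.0 FPKM, log2 ratio 0.33 ± 0.33 (unadjusted p = 0.0160 and q = 0.318 in the authors' deposited table). With shRNA it fell from 38.7 to 0.818 FPKM, or 47.4-fold (q = 0.000121 in the authors' deposited table, as against 0.000441 for the rise in SKBR3).

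TNFAIP3 encodes A20, a ubiquitin-editing enzyme that shuts off NF-kB signalling (chromosome 6, 138188351 to 138204451, plus strand). Its 3 transcripts summed to 4.82 and 5.92 FPKM in SKBR3 (q = 0.720 in the authors' deposited table). For siRNA in HCC1954 the sum was 4.07 and 11.8 FPKM, the highest listed ratio of the 10 there, and it was not called (leading transcript log2 ratio 1.22 ± 1.19, unadjusted p = 0.0379 and q = 0.482 in the authors' deposited table). With shRNA it fell from 29.8 to 1.15 FPKM, 25.9-fold (q = 0.000121 in the authors' deposited table). The leading transcript held between 50.9% and 86.8% of the summed level, so the sum and the test do not cover the same signal.

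**Figure D2:**
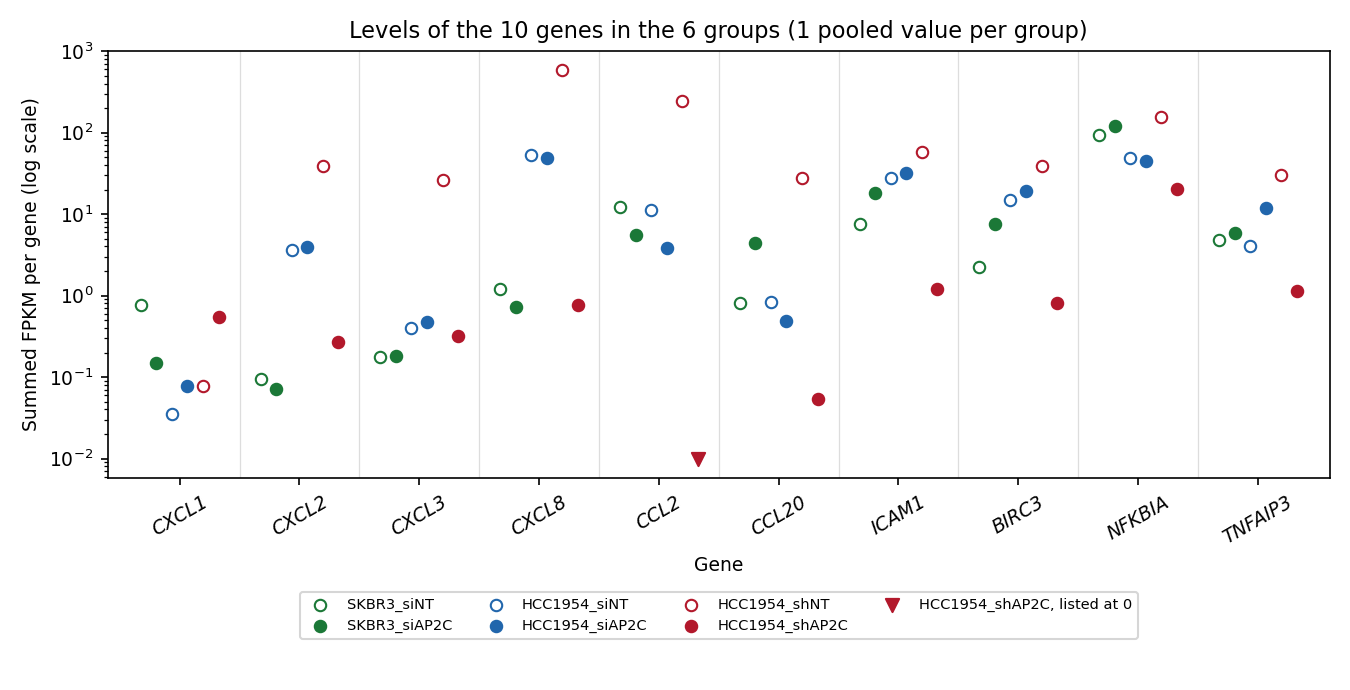
Summed FPKM of each of the 10 genes (log axis) in the 6 groups, open circles for controls and filled ones for knockdowns, 1 pooled value per group and no error bars. HCC1954_shNT is the highest group for every gene except CXCL1, and CCL2 in HCC1954_shAP2C, listed at 0, is drawn as a triangle at the foot of the plot.

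Counted over the list, 5 of the 10 genes were tested in SKBR3, 7 with siRNA in HCC1954 and 9 with shRNA. The rest had no completed test by the authors, so these counts do not speak for all members. In SKBR3, 3 rose (ICAM1, BIRC3, NFKBIA) and 1 fell (CCL2), where 12.4% of tested symbols rose and 20.9% fell. With siRNA in HCC1954, 1 fell (CCL2) and 0 rose, where 0.965% fell and 2.31% rose. At an unadjusted p under 0.05 in the authors' deposited table, 2 members would count as higher there, BIRC3 and TNFAIP3. With shRNA 7 fell and 0 rose, where 39.1% of tested symbols fell and 36.3% rose; no member was higher there at an unadjusted p under 0.05 either. The median log2 ratio of the tested members was 0.36 in SKBR3, 0.11 with siRNA in HCC1954 and -5.98 with shRNA, CCL2 having no ratio there. Over all tested symbols the medians were -0.09, -0.01 and -0.03. The member medians cover different genes. CXCL3 and CCL20 had a completed test only with shRNA, where the control was at 26.2 and 27.6 FPKM. They entered the shRNA median through that high control, so the medians give no measure of how the comparisons differ.

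**Figure D3:**
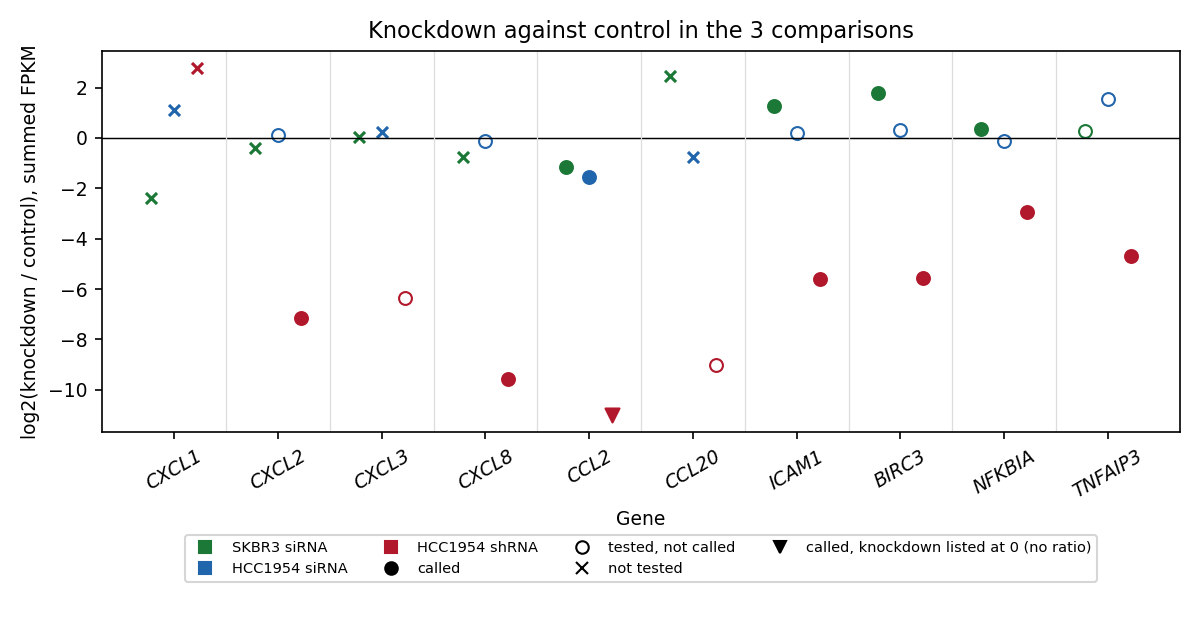
The log2 ratio of knockdown over control (summed FPKM) for the 10 genes in the 3 comparisons, by colour. Filled circles are called, open circles tested and not called, crosses not tested, and the triangle marks CCL2 with shRNA, which has no ratio; the called shRNA values lie between -2.94 and -9.59.

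Differences between comparisons were tested on the leading transcripts by a z test, the difference of log2 ratios over its standard error, with a normal approximation and q from Benjamini-Hochberg adjustment over all genes compared. No exact test could be made, as no value of a single sample was at hand. Between siRNA and shRNA in HCC1954, 6 of 6 members compared had a lower ratio with shRNA and passed, where 13.8% of 8634 genes passed. The difference was -9.62 ± 1.19 for CXCL8 (q = 1.18e-13), -6.06 ± 0.61 for BIRC3 (q = 1.82e-20) and -2.83 ± 0.38 for NFKBIA (q = 1.37e-11). CXCL2 had the q nearest the threshold, 0.0190. With the standard error taken from the deposited p, 6 of 6 passed as well, where 49.3% of genes passed. By that z test BIRC3 differed by -6.06 ± 1.42 (q = 0.000396) and NFKBIA by -2.83 ± 0.73 (q = 0.000923). CXCL8 had q = 0.00123 and CXCL2 q = 0.0456. The deposited p goes no lower than 5e-05, so the far smaller q-values above rest on reading the deposited statistic as a normal score. Between SKBR3 siRNA and HCC1954 shRNA, 4 of 4 members compared passed, all with a lower ratio under shRNA, where 26.9% of 8371 genes passed. By the other standard error 4 of 4 passed, where 60.7% of genes passed.

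Between the siRNA comparisons in SKBR3 and HCC1954, 0 of 5 members compared passed, where 0.505% of 8907 genes passed. BIRC3 differed by -1.44 log2 units (95% interval -2.27 to -0.61, HCC1954 minus SKBR3, q = 0.0970) and ICAM1 by -1.08 (95% interval -1.85 to -0.30, q = 0.386). At an unadjusted p under 0.05 these 2 would count. With the standard error taken from the deposited p instead, 3 of 5 passed, BIRC3, ICAM1 and NFKBIA (q = 0.0212, 0.0206 and 0.0281), where 12.4% of genes passed. The call of a difference between the lines thus depends on how the error is taken.

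The control groups of HCC1954 themselves stood apart for these genes. All 10 were listed higher in shNT than in siNT, CXCL3 by 64.9-fold, CCL20 by 33.5-fold, CCL2 by 21.9-fold, CXCL8 by 10.9-fold and CXCL2 by 10.7-fold. Of 7 members with at least 1 FPKM in both controls, 5 exceeded a ratio of 3.05, which is the 95th percentile over 11679 such genes (median 1.03). ICAM1 and BIRC3, at 2.12-fold and 2.57-fold, did not. The 2 controls come from separately normalized tables and were made by transient siRNA and stable shRNA, so this is a description without a test. In 9 of the 10 genes, all except CXCL1, the shRNA knockdown was also listed below siNT. For this count, and for the 10 listed higher in shNT, no share over all genes was taken. Neither is therefore read as particular to these genes. The gap was 70.4-fold for CXCL8, 22.9-fold for ICAM1, 18.4-fold for BIRC3, 15.4-fold for CCL20, 13.5-fold for CXCL2, 3.55-fold for TNFAIP3, 2.41-fold for NFKBIA and 1.26-fold for CXCL3, and CCL2 was listed at 0 in shAP2C. For CXCL3 and CCL20 both levels were under 1 FPKM. CXCL1 was at 0.0355 FPKM in siNT and 0.0786 FPKM in shNT, so its direction between the controls rests on levels near 0.

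Cell type markers moved in the shRNA comparison beside these genes. All 4 basal epithelial markers (KRT5, KRT14, KRT17, TP63) fell, where 39.1% of tested symbols fell. The 4 markers summed to 655 FPKM in shNT and 0.640 FPKM in shAP2C. They summed to 418 and 727 FPKM with siRNA in HCC1954 and to 2.49 and 1.28 FPKM in SKBR3. With siRNA in HCC1954, 2 of the 4 rose, KRT14 and KRT17, where 2.31% of tested symbols rose. Of 6 epithelial and HER2 markers, EPCAM rose from 112 to 161 FPKM and KRT19 from 19.9 to 634 FPKM with shRNA. The other 4 fell, ERBB2, the HER2 gene, from 1525 to 20.8 FPKM (73.3-fold) and CDH1 from 149 to 20.7 FPKM. KRT18 went from 459 to 306 FPKM and KRT8 from 898 to 807 FPKM. Over all tested symbols there, 36.3% rose and 39.1% fell. The 8 leukocyte markers summed to 7.80 and 5.15 FPKM with shRNA and to at most 39.2 FPKM in any group, mostly from CD68. PTPRC, CD3E, ITGAM, LYZ and HLA-DRA were below 1 FPKM in both shRNA groups, and CD14 was at 1.11 and 0.0863 FPKM. Of 5 endothelial markers, PECAM1 fell with shRNA (11.6 to 0.0180 FPKM) and CDH5 fell too (9.59 FPKM in shNT, listed at 0 in shAP2C). Both also fell after siRNA in HCC1954, PECAM1 from 27.0 to 18.5 FPKM and CDH5 from 4.04 to 0.559 FPKM. There 0.965% of tested symbols fell. CDH5 rose in SKBR3 (10.8 to 29.2 FPKM), where 12.4% of tested symbols rose. No other endothelial marker was tested. Of the 6 fibroblast markers 0 were tested in any comparison. The part of these marker changes in the changes of the 10 genes was not tested. The groups were cultured cell lines, in which pooled values cannot tell fewer expressing cells from less RNA per cell.

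The NF-kB subunits were listed in every group. REL rose from 8.66 to 15.9 FPKM in SKBR3, the 1 call among 5 there, where 33.3% of tested symbols were called. With siRNA in HCC1954 0 of 5 were called, where 3.28% of tested symbols were. With shRNA 4 of 5 fell, where 39.1% of tested symbols fell. RELB went from 12.9 to 3.05 FPKM, REL from 7.59 to 2.60 FPKM, RELA from 58.1 to 33.1 FPKM and NFKB1 from 17.8 to 11.5 FPKM. NFKB2 was at 16.7 and 12.4 FPKM, not called. The log2 ratios of the 4 that fell ran from -0.64 to -2.08, and the median over the 5 was -0.81.

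In the IkB and IKK list, 2 of 10 tested genes rose and 1 fell in SKBR3, where 12.4% of tested symbols rose and 20.9% fell. With siRNA in HCC1954 0 of 12 were called, where 3.28% of tested symbols were. With shRNA 7 of 10 fell and 1 rose, where 39.1% of tested symbols fell and 36.3% rose. NFKBIE, another IkB gene, rose in SKBR3 (10.6 to 14.2 FPKM) and fell with shRNA (12.3 to 7.31 FPKM). BCL3, an atypical IkB, fell from 45.2 to 5.89 FPKM and NFKBIZ, a nuclear IkB, from 42.4 to 1.36 FPKM with shRNA. The NFKBIZ call was made on a transcript at 5.19 and 0.949 FPKM. NFKBIB rose from 18.4 to 29.2 FPKM there. Against the same shares, 2 of 16 adaptors and ubiquitin regulators rose and 1 fell in SKBR3. With siRNA in HCC1954 0 of 15 were called, and with shRNA 11 of 16 fell and 0 rose. IRAK2, a kinase of interleukin 1 signalling, fell from 12.6 to 1.30 FPKM and TNIP1, a partner of A20, from 75.4 to 17.3 FPKM.

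Of 12 ligands that start the pathway, 1 to 3 were tested per comparison. In SKBR3 1 of 1 rose, where 12.4% of tested symbols rose. With siRNA in HCC1954 2 of 3 rose, where 2.31% of tested symbols rose. With shRNA 1 of 3 rose and 1 fell, where 36.3% of tested symbols rose and 39.1% fell. TNF did not exceed 0.614 FPKM in any group and IL1A did not exceed 0.216 FPKM. TNFSF10, the TRAIL gene, was at 48.9 and 46.7 FPKM for siRNA in HCC1954 and at 54.3 and 0.0703 FPKM for shRNA, tested and not called in both. IL18 rose in SKBR3 (14.3 to 37.1 FPKM) and after siRNA in HCC1954 (1.68-fold, from 13.1 FPKM), and fell with shRNA (41.9 to 28.6 FPKM). TNFSF12 rose with shRNA, from a level listed at 0 to 6.85 FPKM. IL1B rose from 1.89 to 4.28 FPKM with siRNA in HCC1954. Of the receptors, 4 of 9 rose and 1 fell in SKBR3, where 12.4% of tested symbols rose and 20.9% fell. With siRNA in HCC1954 0 of 9 were called, where 3.28% of tested symbols were. With shRNA 5 of 8 fell, where 39.1% of tested symbols fell. There 2 rose (TNFRSF21, and CD40 from a level listed at 0), where 36.3% of tested symbols rose. IL1RAP, the shared chain of interleukin 1 receptors, rose from 17.1 to 41.8 FPKM in SKBR3, and IL1R1 fell from 14.9 to 4.08 FPKM with shRNA. The receptors that answer the chemokines were near absent. CXCR1, CXCR2, CCR2 and CCR6 did not exceed 0.144 FPKM in any group.

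In the list of 38 other NF-kB target genes, 9 of 17 tested genes rose and 1 fell in SKBR3, with a median log2 ratio of 0.59. Over all tested symbols there, 12.4% rose and 20.9% fell. LCN2, an iron-siderophore binding protein, rose from 90.8 to 371 FPKM, SAA1 from 16.8 to 41.6 FPKM and the transcription factor gene IRF1 from 19.8 to 46.6 FPKM, while NINJ1 fell from 116 to 72.6 FPKM. After siRNA in HCC1954, 2 of 22 rose and 1 fell, median 0.02, where 2.31% of tested symbols rose and 0.965% fell. PTGS2, the COX-2 gene, rose from 6.57 to 18.5 FPKM, PLAU from 40.2 to 64.1 FPKM, and the chemokine gene CCL5 fell from 10.6 to 3.58 FPKM. With shRNA 18 of 23 fell and 1 rose, median -2.55, where 39.1% of tested symbols fell and 36.3% rose. LCN2 fell from 3887 to 2.46 FPKM, CSF1 from 27.5 to 1.90 FPKM and PTGS2 from 25.8 to 0.322 FPKM. SAA1 fell from 173 FPKM and CFB from 18.4 FPKM to levels listed at 0, and BCL2L1 rose from 76.3 to 110 FPKM. The BCL2L1 call was made on a transcript at 9.54 and 24.1 FPKM. SAA1 and SAA2 are near-identical copies, so reads could be split between them.

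**Figure D4:**
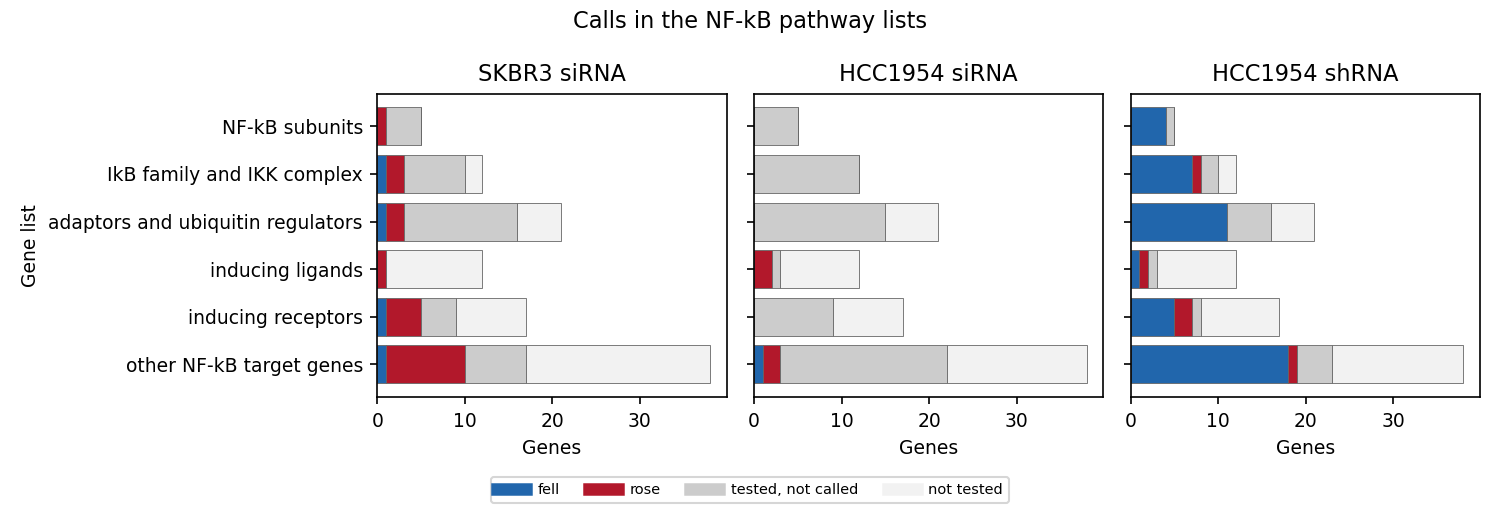
Number of genes per pathway list that fell, rose, were tested and not called, or were not tested, with 1 panel per comparison. With shRNA most tested genes of 5 of the 6 lists fell (the ligands aside), where 39.1% of all tested symbols fell. With siRNA in HCC1954 the bars are mostly grey, where 3.28% of all tested symbols were called.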

How the data were processed

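Libraries were TruSeq preparations, per the labels' protocols. The submitters' processing notes list Bowtie 0.12.2 and Cuffdiff, with hg19 (GRCh37). What was analysed are tables of comparisons made by the authors. Their FPKM values are 1 per transcript and group, pooled by the authors, and their test statistic is a score used as deposited. Each p-value and q-value was deposited by the authors. Single samples have no column (0 per-sample columns), so no model could be fitted.

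Of 66321 RefSeq accessions, 65468 matched 27431 symbols through NCBI RefSeq names (GRCh38.p14) and 853 did not. FPKM was summed per symbol. A call is a completed test with q under 0.05 for the leading accession, and its direction is that of the sums. That transcript can hold a minor part of the sum, so a printed level and its call need not cover the same signal. No pseudocount enters a printed ratio. The standard error of a log2 ratio is the ratio over the deposited statistic. Read as a normal score, that statistic does not always give the deposited p. NFKBIA in SKBR3 had a statistic of 1.99 and p = 5e-05 in the authors' deposited table. The ± values are therefore not the errors behind the deposited q-values. Gene positions, overlaps and 3' regions came from GENCODE (GRCh37). Tools were Python 3.11.15, pandas 2.3.3 and scipy 1.17.1. The members and lists were chosen with earlier results of these data known. All 10 members, TFAP2C, the NF-kB subunits and up to 5 called genes per list and direction, with the 5 genes most like the chemokines, could be named. Marker genes, and genes named for levels near 0 (TNF, IL1A, receptors, neighbours), were picked after their values were seen. AP-2 and AP-1 motifs, the kB core and the AU-rich element were chosen after the tables were seen. Alternatives varied the threshold, transcript, filter, minimum fold, adjustment, pseudocount, scaling and standard error.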

Additional observations from a re-analysis of the deposited data

Results flagged for a closer look

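Log2 ratios of several genes differed between comparisons by the z test described above, each after adjustment over all genes compared and each lower with shRNA. Against siRNA in HCC1954, the shRNA ratio was lower by -9.62 for CXCL8, -7.28 for CXCL2, -6.06 for BIRC3, -5.82 for ICAM1, -5.68 for TNFAIP3 and -2.83 for NFKBIA, as log2 differences. Against siRNA in SKBR3, it was lower by -7.50 for BIRC3, -6.89 for ICAM1, -4.77 for TNFAIP3 and -3.30 for NFKBIA. Both sets of differences use the same shRNA groups, in which knockdown and clone cannot be told apart. The control of the shRNA comparison was listed higher than the siRNA control of HCC1954 for all 10 genes, a count with no share over all genes beside it. What the higher control adds to the differences was not tested.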

How the results depend on the processing

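No paired analysis was possible because the deposited tables hold no value of a single sample, and leaving out replicates was not run for the same reason. The numbers of members called, 4 in SKBR3, 1 with siRNA in HCC1954 and 7 with shRNA, stayed within 1.5 times under a stricter q, other choices of transcript, a minimum fold and another adjustment. In SKBR3 the call of NFKBIA was lost at a minimum of 1.5-fold. Requiring at least 1 FPKM in both groups left 3 members called with shRNA (ICAM1, NFKBIA, TNFAIP3), since the others were under 1 FPKM after knockdown. That filter also left 2 of 2 differences between siRNA and shRNA in HCC1954, and 2 of 2 between SKBR3 siRNA and HCC1954 shRNA, with fewer genes compared. Taking the standard error from the p instead, 3 differences between SKBR3 and HCC1954 siRNA were called in place of 0. The standard error went from 0.366 to 0.154 for NFKBIA and from 0.395 to 0.342 for ICAM1. For BIRC3 it went from 0.423 to 0.459, yet its q by the z test went from 0.0970 to 0.0212. Over the 8907 genes adjusted together, 1104 passed in place of 45. No called log2 ratio changed sign under a pseudocount of 0.1 or 1 FPKM, the leading transcript or either scaling. A pseudocount of 1 FPKM brought CXCL8 with shRNA from -9.59 to -8.38 and CXCL2 from -7.17 to -4.98. Equal upper quartiles removed an offset of -0.14 from the shRNA comparison, which brought NFKBIA from -2.94 to -2.80; calls were not recomputed under that scaling, and CCL2 has no ratio there. Folds on levels under 1 FPKM are imprecise, and the depth behind them is unknown.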

Other observations

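Neighbours of the CXC genes on chromosome 4 changed in both directions with shRNA. EREG, the epiregulin gene (75230862 to 75254466, GRCh37), rose from 1.70 to 152 FPKM and AREG, the amphiregulin gene (75310853 to 75320722), from 5.16 to 131 FPKM, while MTHFD2L, which lies between CXCL2 and these genes, fell from 15.5 to 4.89 FPKM. PARM1, further along, rose from 0.742 to 12.3 FPKM. CXCL5 and CXCL6 did not exceed 0.647 FPKM in any group and were tested in none. Of the 12 neighbours, 4 were tested with shRNA, 3 rose and 1 fell, where 75.4% of tested symbols were called. AREG also rose with siRNA in HCC1954, from 10.6 to 20.2 FPKM, where CXCL2 and CXCL8 were tested and not called. Around BIRC3 on chromosome 11, BIRC2 fell from 73.3 to 17.7 FPKM, YAP1 from 159 to 43.9 FPKM and TMEM123 from 783 to 181 FPKM with shRNA. These were 3 of the 4 neighbours tested, where 75.4% of tested symbols were called and 39.1% fell. The 6 neighbours listed for CCL2, among them CCL7, CCL8 and CCL11, did not exceed 0.0655 FPKM in any group.

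Of 7 factors that act on AU-rich messengers, 2 rose and 0 fell in SKBR3, where 33.3% of tested symbols were called, and 3 rose and 3 fell with shRNA, where 75.4% were called. ZFP36, the tristetraprolin gene, rose in SKBR3 (12.2 to 21.2 FPKM) and fell with shRNA (21.6 to 17.8 FPKM). ZFP36L1 rose 1.53-fold in SKBR3, and with shRNA it went up from 97.8 to 170 FPKM. ZC3H12A, an RNase gene that is itself an NF-kB target, fell from 81.7 to 2.38 FPKM with shRNA. With siRNA in HCC1954, 0 of 7 were called, where 3.28% of tested symbols were.

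The genes whose profile over the 6 pooled groups was most like the mean of the 6 chemokines were PIGY, ATL3, NELFCD, PPP1R3B and S100A7A (Pearson r from 0.995 to 0.991 on log2 of FPKM + 1, standardized, among 11729 candidates). The 6 points come from 3 separately normalized tables, and HCC1954_shNT was the highest group for each of these 5 genes. CXCL1 itself had r = -0.35 with that mean. S100A7A was at 57.3 FPKM in HCC1954_shNT and at most 1.81 FPKM in the other groups.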
